A study of Mus musculus with 32 samples.

Results

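The 8 genes described here, Ddx58, Ifih1, Dhx58, Mavs, Tmem173, Trex1, Samhd1 and Eif2ak2, detect foreign or misplaced nucleic acid in the cytosol, pass that signal on, or limit it. They were taken by name from the 16035 genes that were tested, and 12 probes of the array carry their names. Their mRNA was measured on 32 one-colour Agilent arrays in bone marrow-derived macrophages (BMDMs), which are grown from mouse marrow with the growth factor M-CSF. WT BMDMs came from C57BL/6J mice, and Ifnar1-/- BMDMs lack a subunit of the receptor for type I interferon. BMDMs of each genotype were left untreated or received zVAD, LPS (100 ng/mL in the labels) or IFNβ (1000 U/mL in the labels), and LPS and IFNβ were each also given as LPS+zVAD, IFNβ+zVAD, IFNβ+zVAD+Nec-1 and LPS+zVAD+Nec-1. RNA was taken at 6 h, with 2 arrays in each of the 16 groups. LPS is a bacterial ligand of TLR4, zVAD blocks caspases, and Nec-1 blocks RipK1 kinase activity. The study's methods name other doses of LPS and IFNβ than the labels do. The labels do not say that the 2 arrays of a group came from separate mice or cultures, so the p-values below measure the spread between these arrays only.

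RIG-I (Ddx58) and MDA5 (Ifih1) are helicases that bind viral RNA, and LGP2 (Dhx58) is a related helicase without a signalling domain that regulates them. Both signal through MAVS (Mavs), an adaptor on mitochondria, while cytosolic DNA is detected by cGAS and relayed by STING (Tmem173), an adaptor of the endoplasmic reticulum. Both adaptors lead through the kinase TBK1 to the factor IRF3 and to transcription of type I interferon, which acts through IFNAR1 and induces a large set of interferon-stimulated genes. TREX1 (Trex1) degrades cytosolic DNA, SAMHD1 (Samhd1) hydrolyses deoxynucleotides, and PKR (Eif2ak2) is a kinase that binds double-stranded RNA and halts translation by phosphorylating eIF2α. Macrophages express these genes at rest, and several of them are interferon-stimulated genes themselves.

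Promoter windows from 250 bases before to 50 bases after the annotated start (RefSeq, GRCm38.p6) were used for 6 of the 8 genes. No window of Dhx58 or Tmem173 was searched, so whether either gene holds a motif was not tested. The windows of the 6 genes were searched on both strands for GAAANNGAA, the core of the interferon-stimulated response element, and for TTCNNNGAA, the gamma-activated site. Of all 32851 windows of 300 bases, 8.56% held the first motif and 8.3% the second. Among the 6 genes searched, the first was found in Ddx58, Ifih1 and Eif2ak2, and the second in Samhd1 and Eif2ak2. The 30 bases around each match are shown because these are the genes whose response to interferon is compared below. Each is written 5′ to 3′ on the gene's strand, which is the minus strand in all, with the motif in capitals.
Ddx58, chr4:40239803-40239832, response element core at bases 4 to 12 after the start: ctgaggcagtTTCGATTTCctatggccagc
Ifih1, chr2:62646348-62646377, response element core at bases -112 to -104: agaattcgcgTTCCCTTTCctgtttctcac
Ifih1, chr2:62646206-62646235, response element core at bases 33 to 41 after the start: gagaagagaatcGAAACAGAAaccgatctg
Eif2ak2, chr17:78882535-78882564, response element core at bases 19 to 27 after the start: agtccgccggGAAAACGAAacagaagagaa
Eif2ak2, chr17:78882529-78882558, response element core at bases 25 to 33 after the start: ccgggaaaacGAAACAGAAgagaaccggcc
Eif2ak2, chr17:78882731-78882760, gamma-activated site at bases -178 to -170: ctgcagagctTTCCCAGAAtggaagccagg
Samhd1, chr2:157135312-157135341, gamma-activated site at bases -235 to -227: acaccaccctTTCGGAGAAacacaagggcg
The 2 cores of Eif2ak2 overlap each other. A match is a description of the letters and not evidence that a factor binds there.

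Levels are given as log2 of the quantile-normalized intensity of a gene's brightest retained probe, and differences as log2 fold changes with the standard error (SE) of the fit. A gene is said to have risen or fallen where limma gave an adjusted p under 0.05 over all genes tested. Levels of different genes were not compared, since each has its own probe. The probes used were above background on 32 of 32 arrays for all 8 genes. In mm9 coordinates the probes lie at chr4:40151893-40151952 for Ddx58, chr2:62435507-62435566 for Ifih1, chr11:100556271-100556330 for Dhx58 and chr2:131073675-131073734 for Mavs. Those of Tmem173, Trex1, Samhd1 and Eif2ak2 lie at chr18:35893692-35893751, chr9:108960454-108960513, chr2:156923265-156923324 and chr17:79252168-79252227. The Mavs probe is on the plus strand and the other 7 are on the minus strand.

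Each of the 4 slides held the 8 treatments of 1 genotype and 1 replicate number. Within 1 treatment, genotype and slide therefore cannot be told apart. Changes within a genotype, and their comparison between genotypes, do not have this limit. Between 55.6% and 78.3% of spots were well above background on the WT arrays and between 45.4% and 62.1% on the Ifnar1-/- arrays. All 10 macrophage markers were above background on all 32 arrays, as were 8 of 10 neutrophil and granule markers, 3 of 9 B and T cell markers and 2 of 7 dendritic cell markers. None of 6 mast cell markers and 3 of 10 erythroid and stromal markers were. Ifnar1 itself read 14.22 and 14.19 in untreated WT BMDMs against 11.89 and 11.87 in untreated Ifnar1-/- BMDMs, a log2 difference of -2.33 (SE 0.659, adjusted p = 0.0327). WT arrays read higher without overlap in 5 of the other 7 treatments and overlapped with LPS+zVAD and IFNβ+zVAD+Nec-1 (in all, 9.02 to 14.76 in WT and 11.16 to 12.44 in Ifnar1-/-). Where this probe lies relative to the deletion is not known. In bulk RNA, fewer cells of a type and less RNA per cell cannot be told apart.

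The array labelled Ifnar1-/- LPS+zVAD+Nec-1 replicate 2 went against its label. Over the 493 genes that rose by more than 2 on the log2 scale with LPS in Ifnar1-/- BMDMs, its median log2 difference from untreated cells was 0.0522. Its partner stood at 2.26, the LPS arrays at 3.10 and 3.13, and the LPS+zVAD arrays at 2.55 and 2.66, while the Ifnar1-/- arrays without LPS lay between -0.0687 and 0.556. In that pair 3737 genes differed by more than 1 on the log2 scale, against 581 to 2160 in the other 15 pairs. Results of its group are given with and without it. All groups share 1 estimate of the spread of a gene, so the SE of the other comparisons also draws on this array.

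In WT BMDMs, LPS raised 6 of the 8 genes, the 3 helicases, Trex1, Samhd1 and Eif2ak2, and lowered Mavs and Tmem173. IFNβ raised these 6 genes too and lowered Mavs. For comparison, 41.2% of all genes were called with LPS (16.3% higher, 24.9% lower) and 35.3% with IFNβ (13.7% higher, 21.6% lower). The median log2 fold change of the 8 genes was 2.05 with LPS and 2.63 with IFNβ, beside -0.0780 and -0.170 over all genes. With the arrays shifted to a common upper quartile instead (the 75th percentile shift), 50.2% of the calls with LPS and 50.1% of those with IFNβ were higher, beside 39.6% and 38.8% here. Both comparisons use the same untreated arrays.

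Ddx58 read 13.69 and 13.68 in untreated WT BMDMs, 16.46 and 16.10 with LPS, and 16.75 and 16.84 with IFNβ. Neither stimulus overlapped the untreated arrays, and the log2 fold changes were 2.59 (SE 0.213, adjusted p = 7.58e-08) and 3.10 (adjusted p = 4.96e-09), the latter an 8.60-fold rise. Ifih1 read 12.58 and 12.75 untreated, 16.47 and 15.85 with LPS, and 16.68 and 16.63 with IFNβ. Its log2 fold changes, 3.49 (SE 0.636, adjusted p = 0.000232) and 3.99 (adjusted p = 8.21e-05), carried a larger SE than those of the other 7 genes. That SE includes the spread of the Ifnar1-/- LPS+zVAD+Nec-1 pair, at 14.49 and 11.11 for Ifih1. Dhx58 read 11.44 and 11.39 untreated, 14.33 and 13.98 with LPS, and 15.16 and 15.26 with IFNβ, so that the 3 groups were apart from one another. The rises were 2.74 with LPS (SE 0.212, adjusted p = 4.39e-08) and 3.79 with IFNβ (adjusted p = 1.15e-09).

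Eif2ak2, the kinase, read 10.91 and 10.79 untreated, 14.17 and 13.78 with LPS, and 14.52 and 14.57 with IFNβ. It rose by 3.13 (SE 0.223, adjusted p = 2.09e-08) and 3.70 (adjusted p = 1.66e-09). The enzymes that remove nucleic acid and its precursors rose as well. Trex1 read 15.92 and 15.72 untreated, 17.39 and 17.25 with LPS, and 17.40 and 17.62 with IFNβ, and rose by 1.50 (SE 0.286, adjusted p = 0.000357) and 1.69 (adjusted p = 0.000145). Samhd1 read 15.38 and 15.59 untreated, 16.93 and 17.00 with LPS, and 17.71 and 17.59 with IFNβ. Its rises were 1.48 (SE 0.324, adjusted p = 0.00115) and 2.17 (adjusted p = 4.23e-05), and 2.56 and 3.0 with its 3 probes averaged.

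The adaptors behaved differently from the receptors. Mavs read 12.85 and 13.12 untreated, 11.31 and 12.08 with LPS, and 11.03 and 11.24 with IFNβ. It fell with both, by 1.29 (SE 0.360, adjusted p = 0.00715) and 1.85 (adjusted p = 0.000535) on the log2 scale. Tmem173 read 13.80 and 13.83 untreated, 12.56 and 12.64 with LPS, and 15.20 and 14.52 with IFNβ. With LPS it was lower (-1.21, SE 0.420, adjusted p = 0.0270), and with IFNβ both arrays lay above the untreated pair without passing the test (1.05, adjusted p = 0.0591). That value passed with the slide as a replicate block (adjusted p = 0.0233), under the 75th percentile shift (1.54, adjusted p = 0.0115), with both Ifnar1-/- LPS+zVAD+Nec-1 arrays out of the fit (adjusted p = 0.00745) and without WT IFNβ replicate 2 (1.39, adjusted p = 0.0496).

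The falls with LPS were less firm than the rises. Replacing quantile normalization by a shift of each array to the same 75th percentile moved the median of all genes with LPS from -0.0780 to 0.0752, and that with IFNβ from -0.170 to -0.0205 and that with LPS+zVAD from -0.154 to 0.122. It left Mavs at -1.03 (adjusted p = 0.0645) and Tmem173 at -0.82 (adjusted p = 0.163). Without WT LPS replicate 1, Mavs stood at -0.91 (adjusted p = 0.121), and without untreated replicate 2 at -1.16 (adjusted p = 0.0604). Tmem173 kept its value, between -1.25 and -1.17, but missed the threshold whichever of the 4 arrays was left out. Of 12 settings, Tmem173 was called in 7, with an adjusted p down to 0.0023, and Mavs in 8.

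Set directly against each other, LPS and IFNβ differed for 2 of the 8 genes, with 20.3% of all genes called. Dhx58 was lower with LPS than with IFNβ by a log2 difference of -1.06 (SE 0.212, adjusted p = 0.00146), and Tmem173 by -2.26 (SE 0.420, adjusted p = 0.000809). The differences of Ddx58 (-0.51, adjusted p = 0.101), Eif2ak2 (-0.57, adjusted p = 0.0808) and Samhd1 (-0.68, adjusted p = 0.158) did not pass, nor did those of Ifih1 (-0.50), Trex1 (-0.19) and Mavs (0.56). With a replicate block Ddx58 passed (adjusted p = 0.0473), with both Ifnar1-/- LPS+zVAD+Nec-1 arrays left out Samhd1 passed (adjusted p = 0.0427), and with only the 4 arrays compared Dhx58 did not (adjusted p = 0.102).

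**Figure D1:**
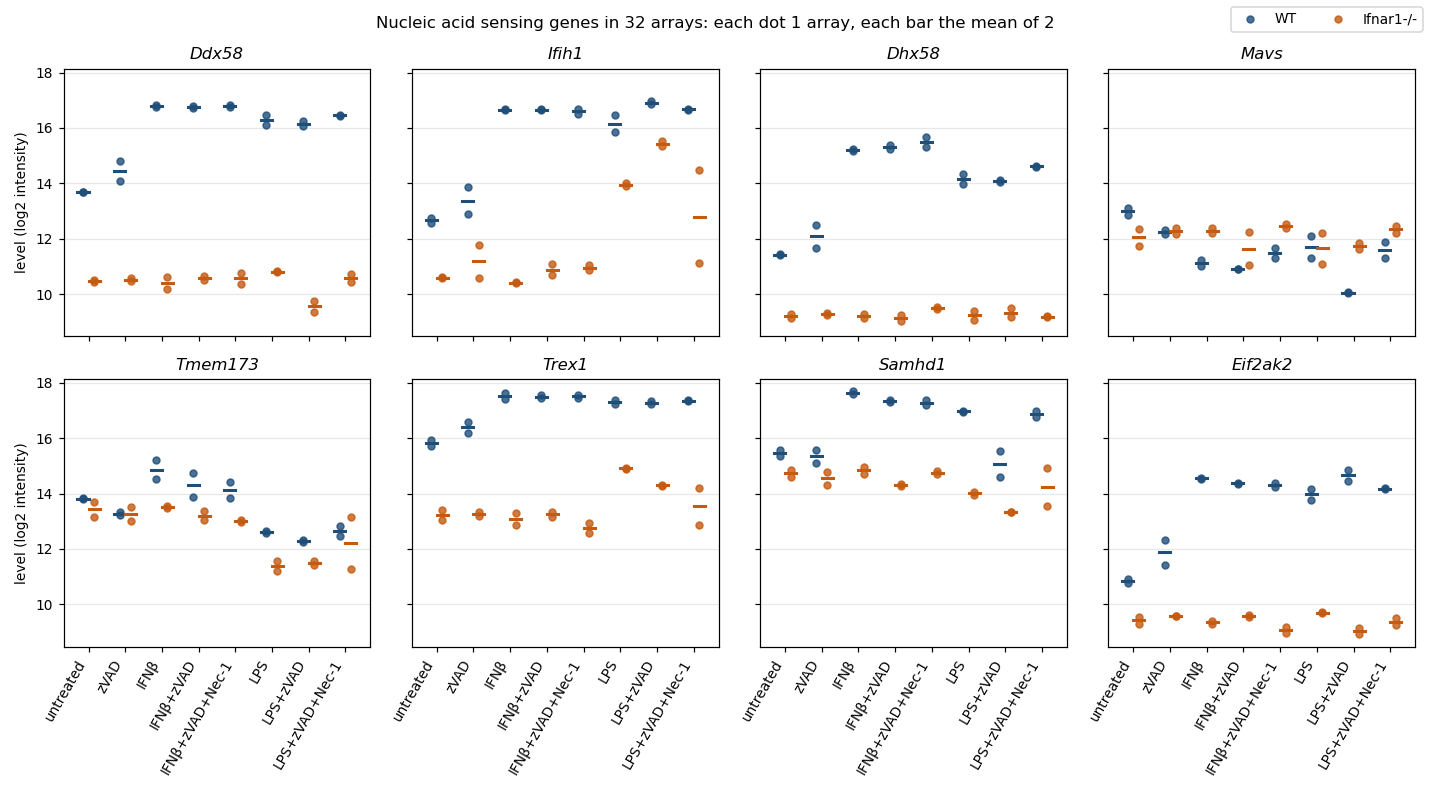
Level of each of the 8 genes on all 32 arrays (log2 normalized intensity, 1 panel per gene), by treatment, with WT and Ifnar1-/- arrays as separate points and a line at each group mean (n = 2). Dhx58 stays between 9.04 and 9.53 on all 16 Ifnar1-/- arrays, while Ifih1 reaches 15.53 there with LPS+zVAD.

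In Ifnar1-/- BMDMs none of the 8 genes was called with IFNβ, and none of all genes was (0%). Their log2 fold changes lay between -0.19 and 0.25, limma gave 0 of the 8 an unadjusted p under 0.05, and none was called under any alternative that was run. Over the 6 Ifnar1-/- arrays with IFNβ, Ddx58 ran from 10.18 to 10.77 and Eif2ak2 from 8.95 to 9.61, close to the untreated 10.50 and 10.45, and 9.53 and 9.30. With IFNβ+zVAD (0.00624% of all genes called) and IFNβ+zVAD+Nec-1 (1.76%), no member was called and none had an unadjusted p under 0.05. In WT BMDMs the same combinations raised 6 and lowered Mavs, with 37.5% and 31.7% of all genes called. There Dhx58 rose by 3.90 and 4.06, Ifih1 by 4.0 and 3.94, and Mavs fell by 2.08 and 1.51 on the log2 scale, whereas Tmem173 (0.51 and 0.31) did not pass.

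LPS changed 3 of the 8 genes in Ifnar1-/- BMDMs, where 24.8% of all genes were called (10.9% higher, 13.9% lower, so that 44% of the calls were higher, and 54% under the 75th percentile shift). Ifih1 read 10.63 and 10.57 in untreated Ifnar1-/- BMDMs and 14.01 and 13.89 with LPS, a rise of 3.35 (SE 0.636, adjusted p = 0.000868). Trex1 read 13.04 and 13.41 untreated and 14.90 and 14.91 with LPS, a rise of 1.69 (adjusted p = 0.000375). Tmem173 read 13.15 and 13.71 untreated and 11.19 and 11.56 with LPS, and fell by 2.06 on the log2 scale (SE 0.420, adjusted p = 0.00152).

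The remaining 5 genes were not called with LPS in Ifnar1-/- BMDMs. Ddx58 read 10.79 and 10.83 against 10.50 and 10.45 untreated, with a log2 fold change of 0.34 (95% interval -0.11 to 0.78, adjusted p = 0.292). Dhx58 differed by 0.03 and Eif2ak2 by 0.28 (adjusted p = 0.952 and 0.421). Mavs read 11.09 and 12.21 against 11.72 and 12.36 untreated, a pair wider than its difference of -0.39. Samhd1 read 13.96 and 14.07 against 14.61 and 14.85, so that the groups did not overlap, and its -0.72 (adjusted p = 0.123) passed once both Ifnar1-/- LPS+zVAD+Nec-1 arrays were out of the fit (adjusted p = 0.0296). Its other probes gave -0.24 and 1.29 here, and their mean with the probe used gave 0.11 (adjusted p = 0.848), so the direction depended on the probe.

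**Figure D2:**
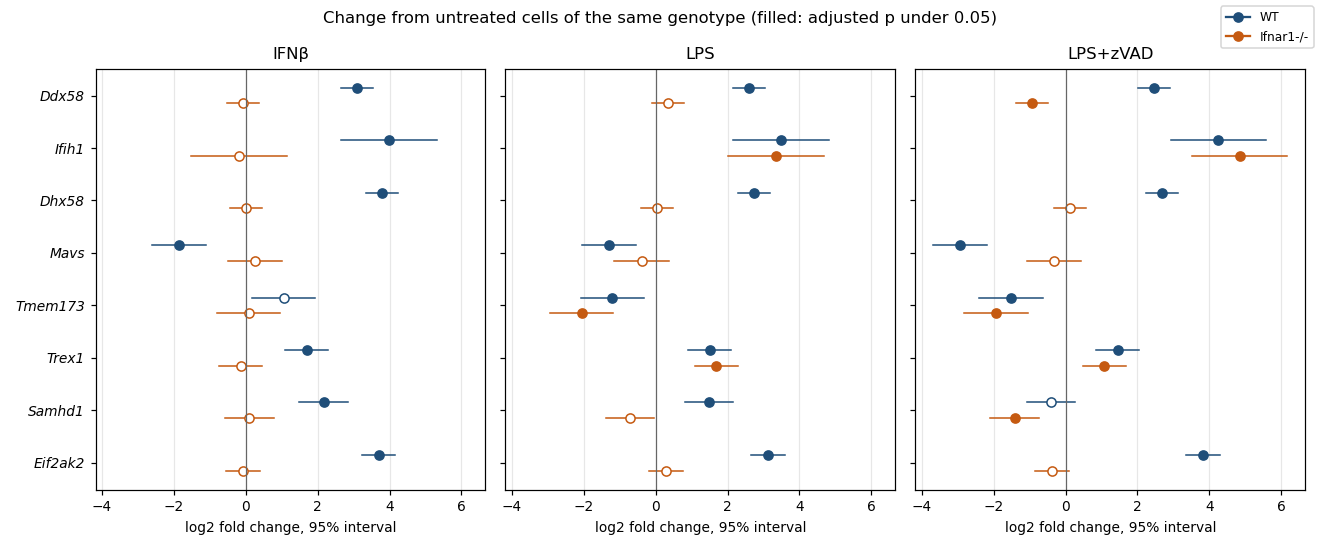
Log2 fold change from untreated BMDMs of the same genotype, with its 95% interval, for each of the 8 genes with IFNβ, LPS and LPS+zVAD. WT and Ifnar1-/- are drawn side by side and filled points passed an adjusted p of 0.05. With LPS the Ifih1 and Trex1 points of both genotypes lie together (3.49 and 3.35, 1.50 and 1.69), while those of Ddx58, Dhx58 and Eif2ak2 are apart.

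The difference between the genotypes in the LPS response was tested itself, as the change in Ifnar1-/- minus the change in WT, and passed for 4 of the 8 genes against 6.64% of all genes. These were Ddx58 (-2.26, adjusted p = 0.000142), Dhx58 (-2.71, adjusted p = 2.65e-05), Samhd1 (-2.20, adjusted p = 0.00607) and Eif2ak2 (-2.84, adjusted p = 2.74e-05). It did not pass for Ifih1 (-0.14, 95% interval -2.03 to 1.74), Trex1 (0.19, -0.66 to 1.03), Tmem173 (-0.85, -2.09 to 0.39) or Mavs (0.90, -0.17 to 1.97). The interval of Ifih1 is wide enough to hold differences over 1 on the log2 scale in either direction, and that of Trex1 is narrower. The Ifih1 interval also draws on the Ifnar1-/- LPS+zVAD+Nec-1 pair, and is not given without it. The standard deviation of Ifih1 was 2.40 in that pair and at most 0.853 in the other groups.

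For IFNβ the same test passed for 7 of the 8 genes, with 18.8% of all genes called. The differences ran from -4.18 for Ifih1 (SE 0.900, adjusted p = 0.00298) through -3.79 for Dhx58, -3.77 for Eif2ak2, -3.18 for Ddx58 and -2.06 for Samhd1 to -1.83 for Trex1 (adjusted p = 0.00367). Mavs differed in the positive direction by 2.10 (adjusted p = 0.00705), its fall being in WT BMDMs. Tmem173 did not pass (-0.97, 95% interval -2.21 to 0.28). With IFNβ+zVAD (19.3% of all genes called) the 7 genes passed again, Mavs at 1.68 (adjusted p = 0.0265) with the least margin. It missed the threshold in 5 of the 8 fits that left out an array, at its lowest without Ifnar1-/- IFNβ+zVAD replicate 2 (1.1, adjusted p = 0.166), and under the 75th percentile shift (1.57, adjusted p = 0.0880).

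With LPS+zVAD, 4 of the 8 genes differed between genotypes, against 16.1% of all genes. Ddx58 (-3.39, adjusted p = 1.89e-06), Dhx58 (-2.55, adjusted p = 2.59e-05) and Eif2ak2 (-4.20, adjusted p = 5.04e-07) differed downwards, and Mavs upwards (2.62, adjusted p = 0.00169). Ifih1 (0.59), Trex1 (-0.38) and Tmem173 (-0.41) did not pass. Samhd1 (-1.0, adjusted p = 0.155) did with both Ifnar1-/- LPS+zVAD+Nec-1 arrays left out (adjusted p = 0.0410), without WT LPS+zVAD replicate 2 (-1.48, adjusted p = 0.0476) and with its probes averaged (-2.03, adjusted p = 0.00174).

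**Figure D3:**
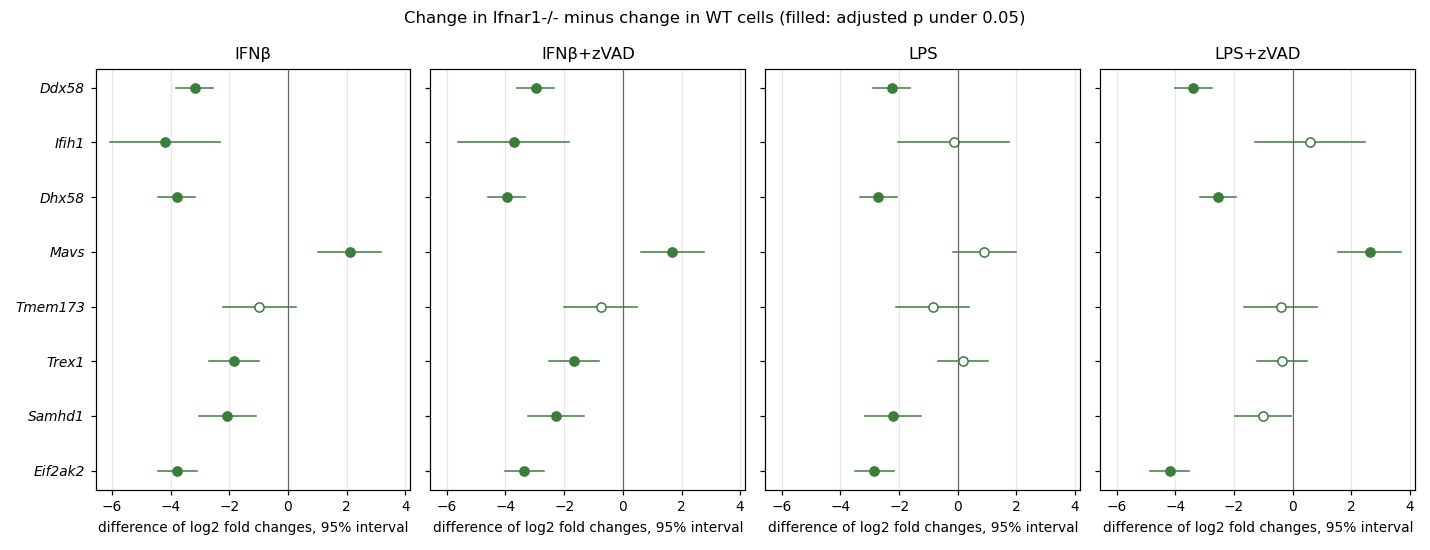
Difference between the genotypes in the response to each stimulus (change in Ifnar1-/- minus change in WT, log2, with 95% interval) for the 8 genes, filled where the adjusted p was under 0.05. Dhx58, Eif2ak2 and Ddx58 are filled and below zero with all 4 stimuli, Ifih1 is filled with IFNβ (-4.18) and open with LPS (-0.14), and Mavs is filled and above zero with all but LPS (0.90, open).

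Without any stimulus, 5 of the 8 genes were lower in Ifnar1-/- than in WT BMDMs and 3 did not pass, with 8.72% of all genes called. Ddx58 showed a log2 difference of -3.21 (SE 0.213, adjusted p = 1.25e-08), which is 9.27-fold, and its highest level on any Ifnar1-/- array (10.83) lay below its lowest on any WT array (13.68). Trex1 differed by -2.60 (adjusted p = 7.21e-06), Dhx58 by -2.21 (adjusted p = 1.30e-06) and Eif2ak2 by -1.43 (adjusted p = 0.000374). Mavs (-0.94, adjusted p = 0.124), Samhd1 (-0.75, adjusted p = 0.179) and Tmem173 (-0.38, adjusted p = 0.701) did not pass. Samhd1 passed with both Ifnar1-/- LPS+zVAD+Nec-1 arrays out of the fit (adjusted p = 0.0462), and its other probes gave -0.29 and -0.45. Ifih1 (-2.07, adjusted p = 0.0496) lost its call whichever of the 4 arrays was left out (-2.15 to -1.98), and in 4 of the other alternatives, among them averaged probes (-1.43, adjusted p = 0.191). It kept the call in the other 3 of 11 settings, with an adjusted p down to 0.00027. Slide and genotype coincide in this comparison. The mean level of the 10 neutrophil and granule markers was 8.99 and 10.29 on the untreated WT arrays and 10.44 and 10.69 on the Ifnar1-/- arrays, with 1 marker higher, 1 lower and a median difference of 1.25, and its part in the result was not tested.

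zVAD alone moved no member in either genotype by the adjusted test, where 0.00624% of all genes were called in WT and 0% in Ifnar1-/- BMDMs. In WT BMDMs limma gave 3 of the 8 an unadjusted p under 0.05. Eif2ak2 read 11.41 and 12.34 against 10.91 and 10.79 untreated (1.03, adjusted p = 0.221), Ddx58 read 14.08 and 14.79 against 13.69 and 13.68 (0.75), and Dhx58 read 11.68 and 12.49 against 11.44 and 11.39 (0.67). All 3 were higher on the second zVAD array than on the first, and without the first they passed, at 1.49 (adjusted p = 0.00587), 1.11 (adjusted p = 0.0402) and 1.08 (adjusted p = 0.0339). In Ifnar1-/- BMDMs the 8 differences ran from -0.17 to 0.59 and 0 had an unadjusted p under 0.05.

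LPS+zVAD, the combination used to stimulate necroptosis, raised 5 of the 8 genes and lowered Mavs and Tmem173 in WT BMDMs, where 50.9% of all genes were called. Eif2ak2 rose by 3.81 (adjusted p = 7.95e-10), Ifih1 by 4.25 (adjusted p = 1.70e-05), Dhx58 by 2.68, Ddx58 by 2.46 and Trex1 by 1.46. Mavs, at 10.07 and 10.04, was at its lowest level of all groups and fell by 2.93 on the log2 scale (adjusted p = 1.83e-06). Tmem173 fell by 1.52 (adjusted p = 0.00506), and Samhd1 (15.55 and 14.60) did not pass (-0.41, adjusted p = 0.314).

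Set against LPS alone, zVAD in WT BMDMs lowered Mavs and Samhd1 and raised Eif2ak2, with 34.6% of all genes called. Mavs differed by -1.64 (SE 0.360, adjusted p = 0.00149) and Samhd1 by -1.89 (SE 0.324, adjusted p = 0.000172). Eif2ak2 read 14.47 and 14.86 with LPS+zVAD against 14.17 and 13.78 with LPS (0.69, adjusted p = 0.0221). That call was lost without WT LPS replicate 2 (0.49, adjusted p = 0.230), without WT LPS+zVAD replicate 2 (0.49, adjusted p = 0.217), in the authors' normalized table (0.71, adjusted p = 0.0528) and with only the 4 arrays compared (adjusted p = 0.214). zVAD added to IFNβ called 0 members and 0% of all genes, and limma gave 0 of the 8 an unadjusted p under 0.05.

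The Samhd1 value depended on the probe. Beside the probe used, 2 dimmer probes carry the name, and with zVAD added to LPS in WT BMDMs they gave -0.90 and -0.28 against -1.89. From untreated to LPS+zVAD they gave 1.52 and 3.50 against -0.41, and the mean of the probes gave a rise of 1.54 (adjusted p = 0.000127). With IFNβ in WT BMDMs the 3 probes ran the same way (3.19, 3.64 and 2.17). The second probes of Ddx58 and Ifih1 gave 2.45 and 4.63 with LPS and 3.64 and 4.89 with IFNβ in WT BMDMs, in the direction of the probes used.

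In Ifnar1-/- BMDMs, LPS+zVAD raised 2 of the 8 genes and lowered 3, with 28.2% of all genes called. Ifih1 read 15.53 and 15.34 and rose by 4.84 (adjusted p = 4.27e-05), above its level with LPS alone (1.48) without passing that second test (adjusted p = 0.172). It passed once both Ifnar1-/- LPS+zVAD+Nec-1 arrays were out of the fit (adjusted p = 0.00461). Trex1 rose by 1.08 (adjusted p = 0.00840), a call lost without untreated replicate 1 (0.89, adjusted p = 0.0863) or LPS+zVAD replicate 1 (1.07, adjusted p = 0.0544). Tmem173 fell by 1.93 (adjusted p = 0.00211), Samhd1 by 1.41 (adjusted p = 0.00314) and Ddx58 by 0.92 (adjusted p = 0.00325) on the log2 scale. With its probes averaged Samhd1 stood at -0.49 (adjusted p = 0.213), and without LPS+zVAD replicate 1 Ddx58 stood at -0.73 (adjusted p = 0.0644).

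Against LPS alone, zVAD called 1 of the 8 genes in Ifnar1-/- BMDMs, beside 8.25% of all genes. Ddx58 read 9.36 and 9.75 with LPS+zVAD and 10.79 and 10.83 with LPS, a difference of -1.26 (SE 0.213, adjusted p = 0.00100), while in WT BMDMs the same step gave -0.13, and the difference between these was not tested. Eif2ak2 read 8.91 and 9.15 against 9.72 and 9.68 and passed only with a replicate block (-0.67, adjusted p = 0.0387). Trex1 (-0.61) passed with both Ifnar1-/- LPS+zVAD+Nec-1 arrays left out (adjusted p = 0.0360), and Samhd1 (-0.70) with only the arrays compared (adjusted p = 0.0450).

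Nec-1 added to LPS+zVAD in WT BMDMs raised Mavs and Samhd1, with 28.5% of all genes called. Mavs read 11.31 and 11.87 against 10.07 and 10.04 (1.53, adjusted p = 0.00326), and Samhd1 16.78 and 16.98 against 15.55 and 14.60 (1.80, adjusted p = 0.000361). The groups did not overlap for either. The same LPS+zVAD arrays enter the comparison of zVAD added to LPS with opposite sign, so the 2 results are not independent. With only the 4 arrays compared, neither passed (adjusted p = 0.0612 and 0.0680) and 0% of all genes did, and without WT LPS+zVAD+Nec-1 replicate 2 Mavs stood at 1.25 (adjusted p = 0.0542). The other 2 Samhd1 probes gave 1.11 and 0.20.

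From untreated to LPS+zVAD+Nec-1, 6 of the 8 genes rose and 2 fell in WT BMDMs, as with LPS alone, with 40.9% of all genes called. Ifih1 rose by 4.02, Eif2ak2 by 3.33 and Samhd1 by 1.40. Mavs (-1.40, adjusted p = 0.00424) lost its call without LPS+zVAD+Nec-1 replicate 1 (-1.12, adjusted p = 0.0629). Tmem173 (-1.17, adjusted p = 0.0317) lost it whichever of the 4 arrays was left out (adjusted p 0.0555 to 0.169), under the 75th percentile shift (-0.85, adjusted p = 0.147) and with no filter on dim probes. Nec-1 added to IFNβ+zVAD called 0 of the 8 and 0% of all genes in WT BMDMs, with 0 members at an unadjusted p under 0.05.

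**Figure D4:**
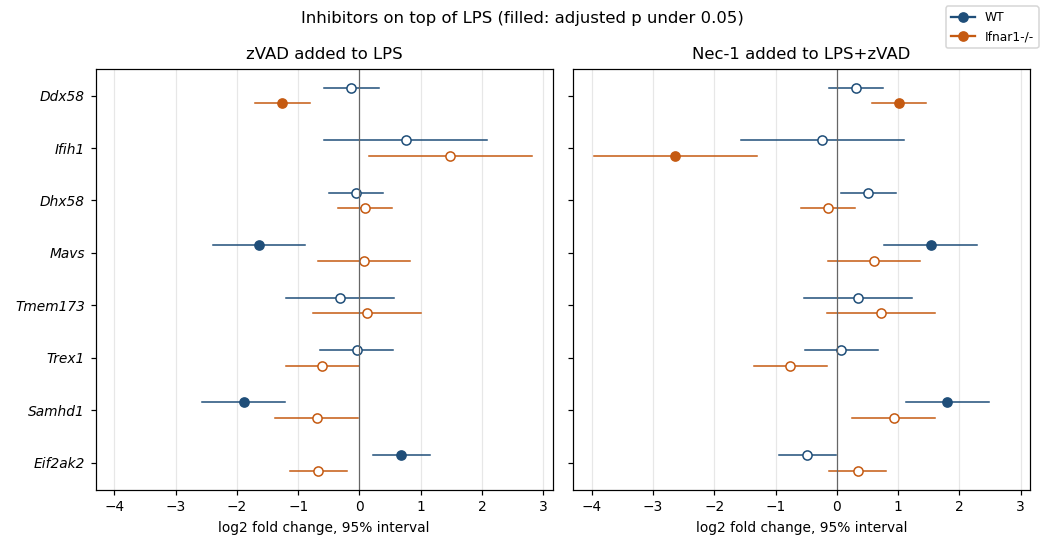
Log2 fold change, with 95% interval, when zVAD was added to LPS (left) and when Nec-1 was added to LPS+zVAD (right), for the 8 genes in WT and Ifnar1-/- BMDMs. Filled points had an adjusted p under 0.05. In WT BMDMs Mavs moves by -1.64 and then 1.53 and Samhd1 by -1.89 and then 1.80, and the Ifnar1-/- Ifih1 point at -2.64 rests on the array that went against its label. The left and right panels share the LPS+zVAD arrays of each genotype, so they are not independent.

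The Ifnar1-/- LPS+zVAD+Nec-1 results rest on the pair that stood apart. Against untreated cells 1.32% of all genes and none of the 8 were called, with 2 of the 8 at an unadjusted p under 0.05. Ifih1 read 14.49 and 11.11 (2.20, adjusted p = 0.0967, and 0.0358 with a replicate block), Tmem173 11.27 and 13.16, Trex1 14.22 and 12.87, and Samhd1 13.56 and 14.94. In each the second array lay nearer to the untreated arrays. Without it 14.7% of all genes and 4 of the 8 were called, Ifih1 at 3.90, Trex1 at 1.0, Tmem173 at -2.16 and Samhd1 at -1.17.

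Against LPS+zVAD in Ifnar1-/- BMDMs, Nec-1 gave 18.8% of all genes called and 2 members. The Ifih1 difference of -2.64 (adjusted p = 0.00803) was -1.03 on 1 slide and -4.24 on the other, and without the second array it was -0.94 (adjusted p = 0.147). Ddx58 was higher by 1.02 (adjusted p = 0.00314), on arrays at 10.43 and 10.71 against 9.36 and 9.75, and lost the call without LPS+zVAD replicate 1 (0.82, adjusted p = 0.0663). Samhd1 (0.93) passed with a replicate block (adjusted p = 0.0301) and Trex1 (-0.76) under the 75th percentile shift (-1.04, adjusted p = 0.0304). Without the second LPS+zVAD+Nec-1 array Samhd1 stood at 0.24 (adjusted p = 0.704) and Trex1 at -0.081 (adjusted p = 0.884). With only the 4 arrays compared neither Ddx58 (adjusted p = 0.264) nor Ifih1 (adjusted p = 0.354) passed, and 0% of all genes did.

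The rest of the pathway was taken as 5 lists of genes. With IFNβ in WT BMDMs, 7 of 17 RNA sensor cofactors and regulators rose and 3 fell, 9 of 19 DNA sensors and PYHIN genes rose and 3 fell, and 8 of 18 signalling adaptors, kinases and factors rose and 5 fell. Of 15 genes for nucleases and RNA editing 3 rose and 4 fell, and of 10 eIF2α kinases and stress partners 2 rose and 3 fell. Over all genes 13.7% rose and 21.6% fell. With LPS the counts were 8 higher and 2 lower, 10 and 5, 8 and 2, 4 and 7, and 3 and 3, in the same order of lists, beside 16.3% and 24.9% over all genes. The list medians with LPS were 0.44, 0.65, 0.37, -0.51 and 0.44, beside -0.0780 over all genes. In Ifnar1-/- BMDMs none of these genes was called with IFNβ, while LPS raised 3 and lowered 2 of the RNA sensor cofactors, raised 5 and lowered 5 DNA sensors, raised 6 signalling genes and lowered none, raised 1 and lowered 5 nucleases, and raised 3 stress partners and lowered none, beside 10.9% higher and 13.9% lower over all genes. Beside these counts, the mean level of the dendritic cell markers went from 6.29 and 6.72 untreated to 7.30 and 7.67 with LPS and 7.48 and 8.38 with IFNβ in WT BMDMs, with 2 and 1 of 4 tested markers higher. With LPS 2 of 6 tested erythroid and stromal markers and 2 of 10 neutrophil and granule markers were also higher (list means 5.75 and 5.99 against 5.02 and 5.52 untreated, and 9.11 and 10.36 against 8.99 and 10.29). The part of these markers in the counts was not tested.

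Mb21d1, which encodes cGAS, rose with LPS (1.36, adjusted p = 0.000194) and IFNβ (2.13, adjusted p = 2.04e-06) in WT BMDMs and was not called with LPS in Ifnar1-/- BMDMs (-0.13, adjusted p = 0.787). Irf7, the interferon-induced partner of IRF3, rose by 3.04 and 4.26 in WT BMDMs and stood at -0.83 (adjusted p = 0.178) with LPS in Ifnar1-/- BMDMs. Adar, which edits double-stranded RNA, rose by 1.33 and 2.12 and stood at -0.25 (adjusted p = 0.382). Those 3 genes therefore had the calls that Ddx58 and Eif2ak2 had in these comparisons. Zbp1, a sensor of Z-form nucleic acid that binds RipK3, had those of Ifih1, since it rose by 3.61 and 3.88 in WT BMDMs and by 3.47 with LPS in Ifnar1-/- BMDMs (adjusted p = 0.000214).

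Downstream of the adaptors, Tbk1 rose with LPS in both genotypes, by 1.20 in WT (adjusted p = 2.49e-05) and 0.61 in Ifnar1-/- BMDMs (adjusted p = 0.0137). Irf3 was not called with LPS in WT BMDMs (-0.37, adjusted p = 0.176), fell with IFNβ by 0.79 on the log2 scale (adjusted p = 0.00627) and fell with LPS+zVAD by 2.20 (adjusted p = 9.30e-08). In untreated cells Irf7 (-5.67), Zbp1 (-5.07) and Adar (-2.16) were lower in Ifnar1-/- than in WT BMDMs, with adjusted p of 5.43e-08, 5.77e-06 and 4.12e-07. Mb21d1 (-0.50, adjusted p = 0.250), Irf3 (-0.50, adjusted p = 0.163) and Tbk1 (0.19, adjusted p = 0.629) did not pass.

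**Figure D5:**
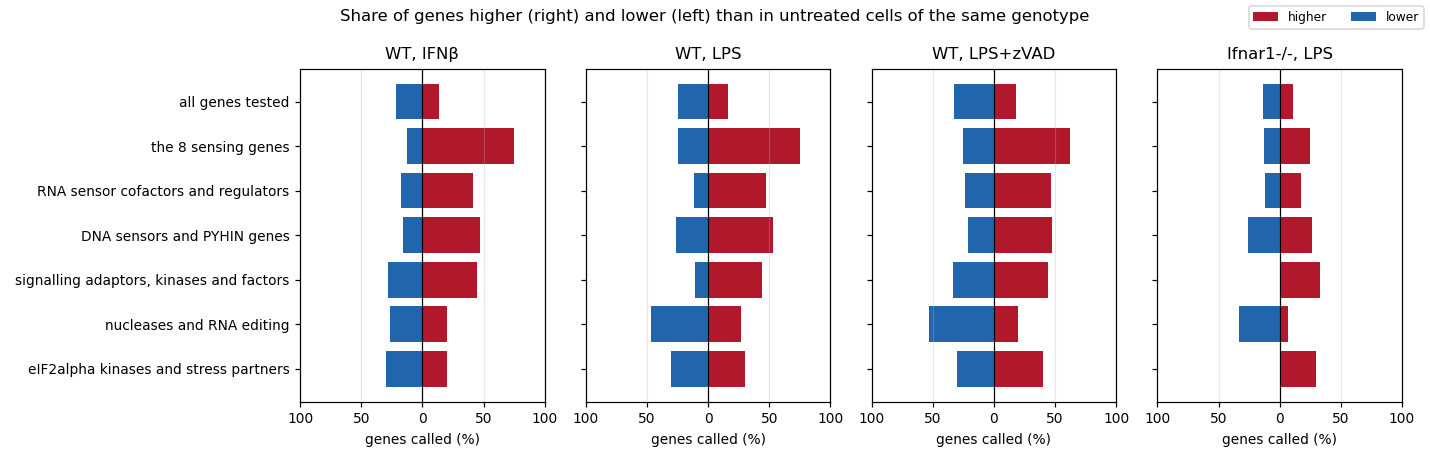
Share of genes called higher (bars to the right) and lower (bars to the left), in percent of the genes tested, for all genes, the 8 sensing genes and the 5 pathway lists, with IFNβ, LPS and LPS+zVAD in WT BMDMs and LPS in Ifnar1-/- BMDMs. With LPS in WT BMDMs 6 of the 8 genes are higher, beside 16.3% of all genes.

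Members of these lists with the largest called change were as follows. With LPS in WT BMDMs, Ddx60, a cofactor of RIG-I, rose by 3.29 (adjusted p = 5.79e-05), the PYHIN gene Mnda by 4.22 (adjusted p = 0.00348), Nlrc5 by 3.16 and the phosphatase subunit Ppp1r15b by 2.94. With IFNβ these were Ddx60 (4.93), Pyhin1 (4.91), Irf7 (4.26), the DNase gene Dnase1l3 (4.74) and Eif2ak3, the kinase PERK (-2.89). LPS in Ifnar1-/- BMDMs gave 6.28 for Mnda (adjusted p = 0.000360), 1.09 for Ppp1r15b (adjusted p = 0.000822) and 0.70 for Nlrc5 (adjusted p = 0.0903). Ddx60 was not above background in untreated Ifnar1-/- BMDMs and was at least 2.73-fold higher there with LPS (adjusted p = 0.000780).

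With LPS+zVAD in WT BMDMs, 8 of 17 RNA sensor cofactors rose and 4 fell, 9 and 4 of 19 DNA sensors, 8 and 6 of 18 signalling genes, 3 and 8 of 15 nucleases, and 4 and 3 of 10 stress partners, beside 18.3% higher and 32.7% lower over all genes. Ifi202b, a PYHIN gene, was not above background in untreated WT BMDMs (mean 2.22) and reached 12.01, at least 446-fold higher (adjusted p = 2.56e-08). Such a fold sets the mean of the group that was measured against the dimmest signal that counted as above background on the arrays of the other, or the probe's own value if higher. Trim65, a ubiquitin ligase for MDA5, was above background in untreated cells (8.47) and on neither LPS+zVAD array, and was at least 23.6-fold lower (adjusted p = 4.91e-07). Tank, an adaptor of TBK1, rose by 3.59, and Ppp1r15a, which encodes GADD34, by 4.21.

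Over the 16 group means, Ddx58, Dhx58 and Eif2ak2 followed one another closely (Pearson r 0.985 to 0.987). Trex1 was close to them as well (0.951 to 0.959), then Samhd1 (0.871 to 0.913), and Ifih1 and Ddx58 less so (r = 0.811). Mavs ran against Ifih1 (r = -0.707), Eif2ak2 (-0.677), Dhx58 (-0.601), Trex1 (-0.584), Ddx58 (-0.556) and Samhd1 (-0.353), but not Tmem173 (0.0059). The groups share slides and untreated arrays, so these correlations are a description. The genes whose pattern was most like a member's were Slfn8, Phf11d and Phf11a for Ddx58 (r = 0.996 each), Tnfsf10 (0.997), BC094916 and Isg20 for Dhx58, and LOC640793 (0.997), Gm10839 and BC094916 for Eif2ak2. For Ifih1 they were 9930105H17Rik, Herc6 (0.982 each) and Gbp3 (0.981), and for Trex1 they were Mx1 (0.997), Zbp1 (0.996) and H2-Q5 (0.993). Samhd1 was most like Cd2ap (0.990), Isoc1 and 1600014C10Rik. The adaptors had less close neighbours, Tnrc6c (0.955), Setdb1 and Gm4349 for Mavs, and 1700009P17Rik (0.975), Hmga2-ps1 and Heatr5a for Tmem173.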

How the data were processed

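BMDM RNA was hybridised to 32 1-colour Agilent mouse arrays, 2 per group, and scanned with Feature Extraction. The authors deposited the scanner files, whose intensity values (background-subtracted processed signals, not yet normalized between arrays) were used here, and a table of log2 values that the authors had normalized, used as an alternative. That table correlated with the values computed here at 0.983 to 0.995 per array, lay 0.224 to 0.337 above them and left 18115 to 21557 cells per column empty. The submitters' processing notes name limma, with no version.

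Following the study's methods, background-subtracted signals were quantile normalized on the log2 scale and probes above background on at least 50% of arrays were kept, read here as the scanner's flag for well above background. Spots of a probe were averaged, a step chosen here. Control spots were left out, as were 130 to 499 outlier spots per array, and no spot was saturated. Of 55681 probes, 33140 carried a gene symbol and 21462 were kept, giving 16035 genes by the brightest probe of each. limma 3.58.1 (R 4.3.3) was fitted to 16 group means with 16 residual degrees of freedom, with Benjamini-Hochberg adjustment within each comparison. The number of arrays limits the precision. On simulated data with 200 changed genes among 16035, the LPS comparison in WT recovered 80 of 100 genes changed by 2 and 34 of 100 changed by 1 on the log2 scale, with 6 false among 120 calls. The simulated genotype difference with LPS recovered 52 and 20, with 3 false among 75. In the real data 41.2% of all genes were called with LPS in WT BMDMs, more than were changed in the simulation. The adjusted threshold depends on that share, so these rates need not hold for the real comparisons.

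The genes and lists were chosen with earlier results of these data known. All 8 genes were named in every comparison. Of the lists, 6 set genes and the gene with the largest called change in 3 WT comparisons were named (1 of the latter is not reported here), and for each member the 3 genes most correlated over 16 group means. A replicate number is a slide within a genotype. Differences between the slides correlated between treatments in 28 of 28 pairs of groups in WT (0.319 to 0.670) and in 28 of 28 in Ifnar1-/- BMDMs (0.169 to 0.574), so the numbers pair the arrays. Alternatives were a 75th percentile shift, normexp background (offset 50), no filter, averaged probes, the authors' table, the replicate block, other sets of arrays and each array left out. Promoter motifs were counted by exact match.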

Additional observations from a re-analysis of the deposited data

Results flagged for a closer look

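The change with a stimulus differed between Ifnar1-/- and WT BMDMs, by the test of the difference itself in limma, in 22 of 32 tests over the 8 genes and 4 stimuli. Over all genes, the same test passed for 6.64% with LPS, 18.8% with IFNβ, 16.1% with LPS+zVAD and 19.3% with IFNβ+zVAD. Values are the log2 change in Ifnar1-/- minus that in WT, and no explanation was tested. With LPS they were -2.26 for Ddx58, -2.71 for Dhx58, -2.20 for Samhd1 and -2.84 for Eif2ak2. With IFNβ they were -3.18 for Ddx58, -4.18 for Ifih1, -3.79 for Dhx58, 2.10 for Mavs, -1.83 for Trex1, -2.06 for Samhd1 and -3.77 for Eif2ak2. With LPS+zVAD they were -3.39 for Ddx58, -2.55 for Dhx58, 2.62 for Mavs and -4.20 for Eif2ak2. With IFNβ+zVAD they were -2.96 for Ddx58, -3.72 for Ifih1, -3.95 for Dhx58, 1.68 for Mavs, -1.66 for Trex1, -2.29 for Samhd1 and -3.37 for Eif2ak2. The 4 tests of a gene share the untreated arrays of both genotypes.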

How the results depend on the processing

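Of 208 comparisons of a member, 89 were called, and 15 of these lost the call under at least 1 setting. Across the comparisons, the share of all genes called ran from 0% to 50.9%. Over 1640 values with another processing or set of arrays, 1600 kept their side of the threshold, 19 lost a call and 20 gained one. Another 1 changed direction and was called: Samhd1 in WT LPS+zVAD, at 1.54 with its probes averaged. Values called in neither fit could change sign and are among the 1600. Adar, a gene of the lists, changed direction between LPS and LPS+zVAD in WT BMDMs with probes averaged (0.56, adjusted p = 0.0120). The replicate block moved 5 of 200 member values past the threshold and none below it, and it took the number of members called from 0 to 1 in Ifnar1-/- LPS+zVAD+Nec-1 (1.32% to 6.07% of all genes) and from 1 to 2 for zVAD added to LPS in Ifnar1-/- BMDMs (8.25% to 19.5%). That last number was 3 with both Ifnar1-/- LPS+zVAD+Nec-1 arrays left out (11.6% of all genes) and 3 with only the arrays compared (12.8%). Fitting only the arrays compared, with few degrees of freedom, took LPS against IFNβ from 2 to 1 (20.3% to 4.07% of all genes) and Nec-1 added to LPS+zVAD from 2 to 0 in both genotypes (28.5% and 18.8% to 0%). With 1 array left out, where the lone partner is assumed to vary like the other groups, members called ranged from 0 to 3 for WT zVAD, 3 to 5 for Ifnar1-/- LPS+zVAD, 0 to 4 for Ifnar1-/- LPS+zVAD+Nec-1, 1 to 2 for Nec-1 added to LPS+zVAD in WT and 0 to 5 in Ifnar1-/- BMDMs. In each of these comparisons the share of all genes called also moved with the array left out, so the ranges are not particular to the 8 genes. The cause of these shifts was not tested. In the simulation with 2 arrays a group, differences of 1 on the log2 scale were often missed.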
